A study of Mus musculus with 12 samples.

Results

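Complement and coagulation genes were examined in the livers of telomerase-deficient mice and of their wild-type littermates. The set was a list of 36 genes of both plasma cascades, matched to the array's probe annotation by gene symbol, with the probe of highest mean over the 12 arrays taken for each gene. It found 33 of the 36 among 19938 annotated genes, 15 of 16 complement genes and 18 of 20 coagulation genes. C3, Cpb2 and Klkb1 were not analysed here. The groups were first-generation (G1) mTERT KO and first-generation mTR KO males, which lack the protein subunit (mTERT) or the RNA subunit (mTR) of telomerase, and mTERT WT and mTR WT males that were their littermates. All 12 animals were C57BL/6J, were untreated and were matched for age within the study, and each group held 3 animals numbered as sets 1 to 3, 1 knockout and 1 wild-type littermate of a line in each set. First-generation knockouts descend from parents that had telomerase, which limits them as a model of telomere loss. Total RNA of each liver was hybridised to 1 one-colour Affymetrix array. The values below are log2 intensities of 1 probe entry per gene unless stated. Levels of the listed genes were set against background and against other probes, and were not ranked against each other.

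Complement and coagulation are cascades of plasma proteins in which one protease cleaves and activates the next. Complement starts from the lectin, classical and alternative pathways, passes through convertases, and ends in the membrane attack complex, which opens pores in target membranes. Coagulation ends with thrombin cutting fibrinogen into fibrin, and it is held in check by anticoagulant inhibitors and by fibrinolysis. Hepatocytes make most of these proteins, and many of the genes respond to inflammation through interleukin 6, STAT3 and C/EBP factors.

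Hepatocyte markers averaged between 12.59 and 12.78 in every array, so hepatocyte RNA was present throughout. Tert had 3.95, 4.07 and 4.15 in mTERT KO livers of sets 1 to 3, against 4.13, 4.78 and 4.83 in mTERT WT livers, with a background of 4.34 set by 1027 olfactory receptor genes. In the mTR line, where Tert is intact, it had 4.71, 4.90 and 5.02 in mTR KO livers, against 4.58, 4.84 and 5.04 in mTR WT livers. All 3 mTERT KO arrays thus lay under background and 8 of the other 9 above it, and the exception was the array labelled mTERT WT 1, whose value was in the knockout range. Its label is not borne out by this probe. Differences of several named genes, and some medians, are given without it as well. Counts of groups without overlap, of litters and of highest group means include it. Terc, the mTR gene, had 3.87 to 4.33 in mTR KO livers and 4.12 to 4.24 in mTR WT livers, all under background, and could not check the mTR labels. Pancreas acinar transcripts averaged 6.78 to 11.20 in 5 arrays (mTERT KO 1, mTERT WT 1, mTERT WT 2, mTR KO 1 and mTR WT 2) and at most 3.95 in the other 7. Skeletal muscle transcripts averaged 6.36 and 6.69 in mTERT WT 3 and mTERT WT 1 and at most 4.40 elsewhere. Neutrophil, T and B cell and platelet markers averaged 3.68 to 4.40 in every array, near or under background. The set 1 arrays differed from those of sets 2 and 3 in 38.2% of the probes tested, so the set number is treated below as a comparison of its own. In whole liver, fewer cells of a type and less RNA per cell cannot be told apart.

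All 33 genes were expressed far above background in every array, the lowest single value being 7.66 for C2 in mTR WT 2. They varied little. The median SD within a group was 0.12 over the 33 genes, against 0.17 over the 20197 probes tested and 0.18 over the 2772 tested probes of a similar or higher mean level. Complement genes had a median SD of 0.15 and coagulation genes of 0.11. Over all 12 arrays the range was under 0.5 log2 units for 16 of the 33 genes (48.5%, against 41.8% of tested probes). By list, this held for 6 of 15 complement genes (40.0%, near the share of tested probes) and 10 of 18 coagulation genes (55.6%). The range was narrowest for C8g, a chain of the pore-forming C8 complex, at 0.16. The next narrowest were Serpinc1, which encodes antithrombin, at 0.18, Proc, the anticoagulant protein C, at 0.19, Kng1, the kininogen, at 0.22, and F2, prothrombin, at 0.24. The widest were C6, a membrane attack component, at 1.62, and the fibrinogen chain gene Fga and the factor XIII carrier subunit gene F13b, both at 0.91. Of the 12 arrays, mTR KO 1 held the lowest value for 12 of the 33 genes and mTR WT 2 for another 12, while they held the lowest value for 13.8% and 10.3% of all tested probes. Both carried pancreas transcripts, with list means of 11.20 and 6.78. The other pancreas-bearing arrays were mTERT KO 1, mTERT WT 1 and mTERT WT 2, with means of 9.70, 7.25 and 8.84. These held the lowest value for 1, 2 and 1 of the 33 genes and the highest for 0, 8 and 4. The part of pancreas transcripts in the low values was not tested. mTERT WT 3, one of the arrays with muscle transcripts (6.36), held the highest value for 10 of the 33 genes and for 9.42% of tested probes.

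**Figure D1:**
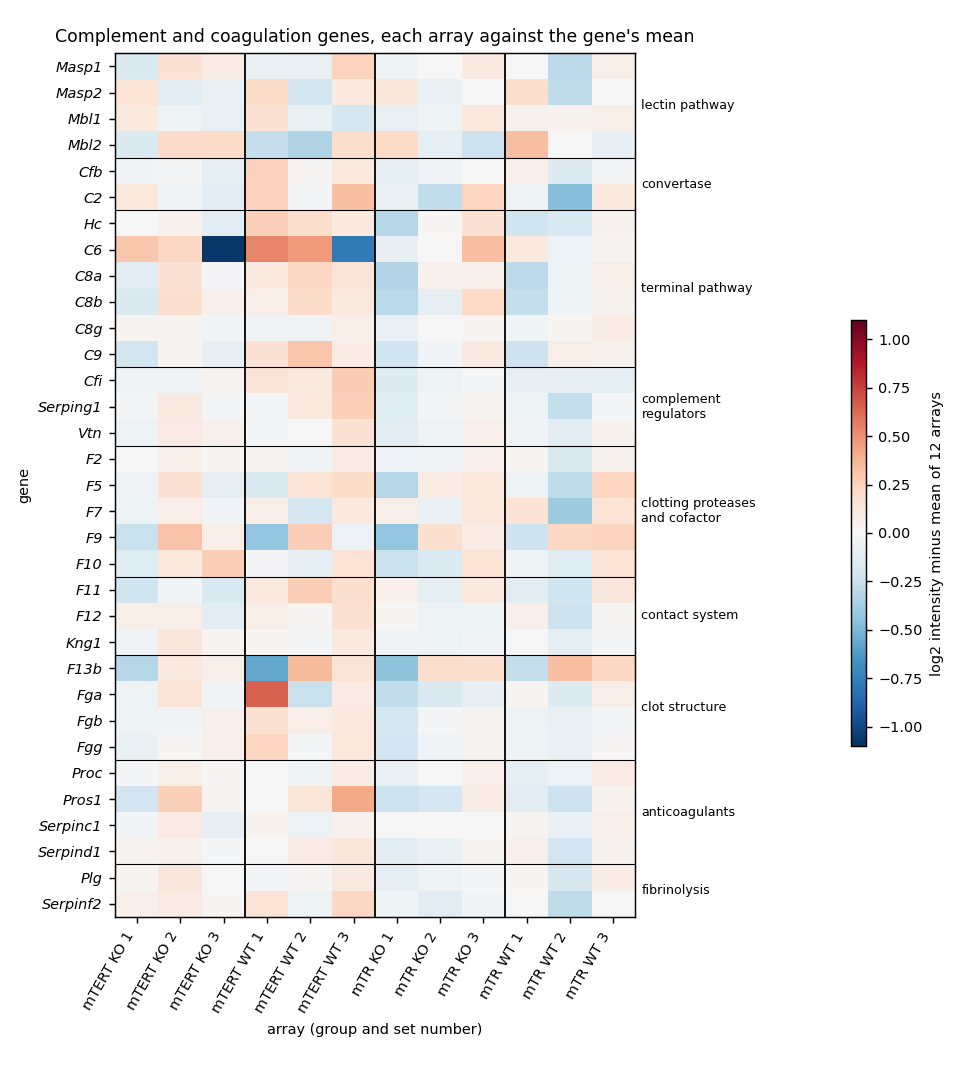
Log2 intensity of each of the 33 genes in each of the 12 arrays minus the gene's mean over the 12 arrays, with genes in rows by role and arrays in columns by group and set number. C6 in the set 3 arrays of both mTERT groups and Fga in mTERT WT 1 show the strongest colours, and F13b and F9 are blue (low) in the set 1 array of all 4 groups.

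The first comparison asked what loss of mTERT does to these genes. No gene of the list differed between mTERT KO and mTERT WT livers at an adjusted p of 0.05 in limma, and neither did any of the 20197 probes (0.0% called). Before adjustment, limma gave 283 probes (1.4%) a p below 0.05, 3 genes of the list among them. Of the complement genes 12 of 15 lay below 0, with a median KO minus WT difference of -0.10 log2 units, against 0.01 over all tested probes. Of the coagulation genes 12 of 18 lay below 0, with a median of -0.04. By role, the medians were -0.18 for the 6 terminal pathway genes, -0.19 for the convertase genes Cfb and C2, -0.10 for the 3 complement regulators, -0.12 for the 4 clot structure genes, and 0.01 for the 4 lectin pathway genes and for the 5 clotting protease and cofactor genes.

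F11, the contact-pathway zymogen factor XI, had 8.04, 8.23 and 8.09 in the mTERT KO livers of sets 1 to 3, against 8.36, 8.53 and 8.43 in mTERT WT livers. Every KO value lay under every WT value, and the difference was -0.32 (SE 0.111, 95% interval -0.57 to -0.08, unadjusted p 0.0139, adjusted p 1.00 in limma). Cfi, the protease that inactivates C3b and C4b, had 10.93, 10.93 and 11 in mTERT KO livers, against 11.11, 11.08 and 11.25 in mTERT WT livers. These groups did not overlap either, with a difference of -0.20 (SE 0.0844, unadjusted p 0.0391). C9, whose polymer forms the ring of the membrane attack pore, had 11.06, 11.28 and 11.17 in mTERT KO livers, against 11.42, 11.56 and 11.34 in mTERT WT livers. The KO values again lay below all WT values, by -0.27 in the mean (SE 0.12, unadjusted p 0.0475). Hc, the mouse C5 gene, had 11.61, 11.66 and 11.50 in mTERT KO livers, against 11.88, 11.81 and 11.72 in mTERT WT livers, again without overlap. Cfb, the protease of the alternative-pathway convertase, had 11.53, 11.54 and 11.46 in mTERT KO livers, against 11.81, 11.57 and 11.67 in mTERT WT livers, without overlap and with a difference of -0.17. Fgb, the fibrinogen beta chain, was the last gene whose groups did not overlap, with 12.76, 12.78 and 12.87 in mTERT KO livers, against 12.98, 12.88 and 12.92 in mTERT WT livers.

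These 6 genes were all lower in mTERT KO livers, 6 of 33, where 1.86% of tested probes were lower without overlap. Within litters, the KO animal was below its WT littermate in 3 of 3 litters for 9 of 15 complement genes and for 2 of 18 coagulation genes, where 9.69% of tested probes were. With the litter as a replicate block, the unadjusted p in limma was 0.00304 for F11, 0.01025 for C9, 0.0362 for Cfi and 0.0378 for Hc. The adjusted p of these genes was then 0.853 to 0.946. Set 2 differed from the other sets: the median KO minus WT difference of the complement genes was -0.14, -0.02 and -0.17 in the litters of sets 1, 2 and 3, and that of the coagulation genes was -0.06, 0.10 and -0.11. The acute phase genes ran the same way with all arrays, 18 of 19 below 0 with a median of -0.29. The array mTERT WT 1 had an acute phase mean of 10.33, against 8.76 to 9.30 in the other 11. The means of mTERT WT 2 and mTERT WT 3, 8.91 and 9.15, lay within the 8.82 to 9.30 of the mTERT KO arrays. By litter, the acute phase means of the mTERT KO arrays of sets 1 to 3 were 9.30, 8.82 and 8.94. Each was below that of its WT littermate. Without the array labelled mTERT WT 1, the differences of F11, Cfi and C9 were -0.36, -0.21 and -0.28 (unadjusted p 0.0157, 0.051 and 0.0735 in limma). Those of Cfb and Fgb were then -0.11 and -0.10, and that of Fgg was -0.05, against -0.11 with that array. The complement and coagulation medians were -0.11 and -0.04 without it. Without the pancreas-bearing arrays, which leaves mTERT WT 3 as the lone wild type of the line, F11, Cfi and Cfb differed by -0.28, -0.29 and -0.17 and C9 by -0.11. The coagulation median was 0.01 without mTERT WT 3, and the complement median was -0.18 without mTERT KO 2. The part of acute phase and muscle transcripts in these differences was not tested.

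Of the other genes central to either cascade, F2, Serpinc1, Plg and Mbl1 overlapped between the mTERT groups, while Mbl2, Fga and Fgg are described further on. F2 had 11.47, 11.54 and 11.49 in mTERT KO livers, against 11.49, 11.44 and 11.55 in mTERT WT livers. Serpinc1 had 11.27, 11.39 and 11.21 in mTERT KO livers, against 11.34, 11.24 and 11.35 in mTERT WT livers. Plg, the zymogen of the clot-dissolving protease plasmin, had 12.02, 12.12 and 11.99 in mTERT KO livers, against 11.97, 12.01 and 12.09 in mTERT WT livers. The KO minus WT difference was 0.02 at most in size for these. Mbl1, which encodes a mannose-binding lectin, had 9.41, 9.25 and 9.22 in mTERT KO livers, against 9.46, 9.22 and 9.11 in mTERT WT livers. The 95% intervals of the KO minus WT difference come from the fit that does not pair littermates. They excluded a change of more than 1.5-fold for 30 of the 33 genes (83.6% of tested probes). A change of more than 2-fold was excluded for all but C6. Paired by litter, C6 differed by -0.26 with a smaller SE, 0.1015 against 0.3826 (unadjusted p 0.02985, adjusted p 0.946 in limma).

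The same question was asked of mTR. No gene of the list and no probe passed the test between mTR KO and mTR WT livers (0.0% called). Before adjustment, limma gave 195 probes (0.965%) a p below 0.05, none of them for a gene of the list. Complement genes lay above 0 in 10 of 15 cases with a median of 0.02, coagulation genes in 7 of 18 with a median of -0.01, and all tested probes had a median of -0.01. In none of the 33 genes did the groups separate, where 4.48% of tested probes did. The genes with the smallest unadjusted p were Serping1, the C1 inhibitor, at 0.08 (p 0.466 in limma) among the complement genes and Fga at -0.16 (SE 0.182, p 0.406) among the coagulation genes. F11 had 8.31, 8.16 and 8.36 in mTR KO livers, against 8.14, 8.04 and 8.38 in mTR WT livers. Cfi had 10.83, 10.92 and 10.96 in mTR KO livers, against 10.88, 10.87 and 10.87 in mTR WT livers. C9 had 11.04, 11.23 and 11.36 in mTR KO livers, against 11.03, 11.32 and 11.30 in mTR WT livers. The groups overlapped for all 3, and Hc overlapped as well, with 11.30, 11.63 and 11.77 in mTR KO livers, against 11.40, 11.45 and 11.65 in mTR WT livers. The interval excluded a change of more than 1.5-fold for 30 of the 33 genes (84.3% of tested probes), and of more than 2-fold for all 33.

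**Figure D2:**
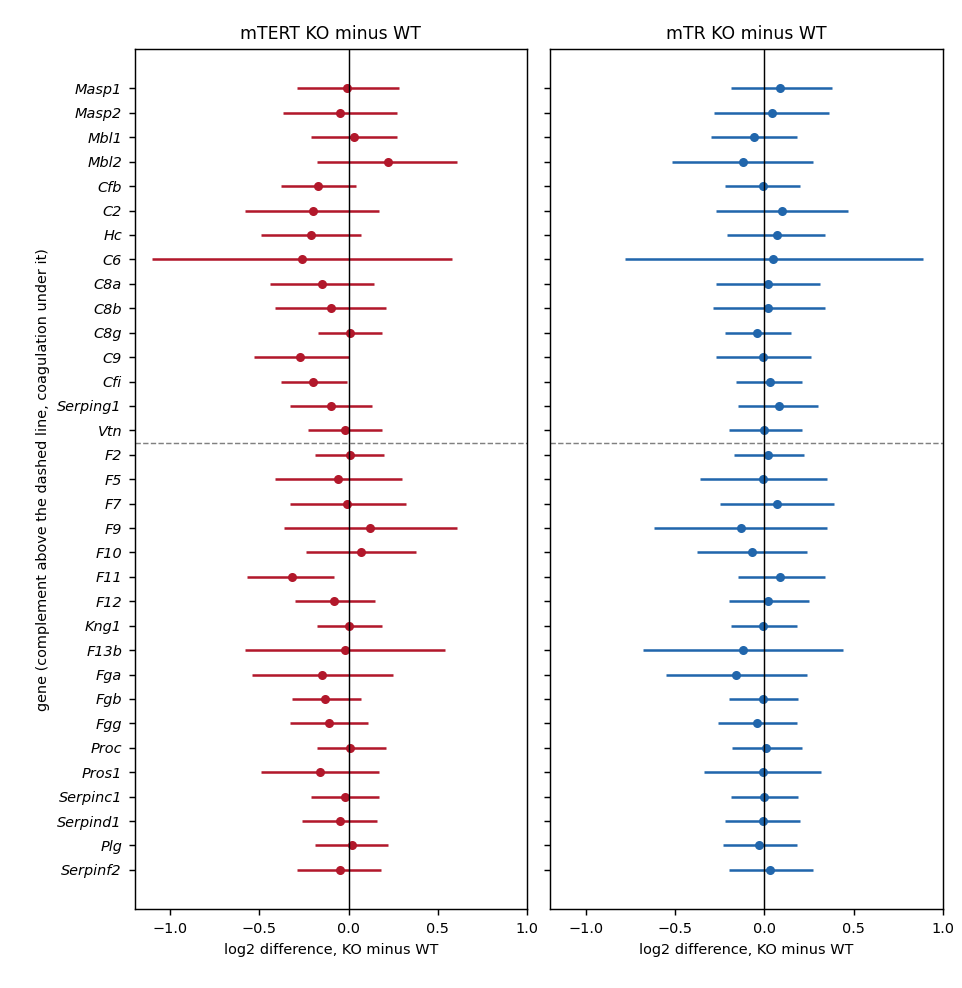
KO minus WT difference in log2 intensity with its 95% interval from limma for the 33 genes, mTERT on the left and mTR on the right, 3 animals a group. The mTERT intervals of F11, Cfi and C9 lie below 0, that of C9 only just, and every mTR interval spans 0.

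The knockout effects of the lines were then set against each other and averaged. The difference between them (mTR KO minus WT, less mTERT KO minus WT) passed the test for no probe (0.0% called, and 293 below an unadjusted p of 0.05 in limma). F11 had the smallest unadjusted p of the list, with a difference between the effects of 0.41 (SE 0.157, unadjusted p 0.0224, adjusted p 1.00). For Cfi the difference between the effects was 0.22. For Hc it was 0.28 (0.18 without mTR KO 3 and 0.41 without mTR KO 1), and for C9 it was 0.26 (0.17 without mTR WT 1). For Mbl2, a second mannose-binding lectin, it was -0.34 (-0.50 without mTERT WT 3 and -0.21 without mTR WT 1). Averaged over both lines, 27 of the 33 genes lay below 0 with no gene past the test (0.0% of probes called, and 143 below an unadjusted p of 0.05 in limma). The averages furthest from 0 among the named genes were -0.15 for Fga, -0.14 for C9 and -0.11 for F11. The average of F11 was -0.07 without mTR WT 3.

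Wild-type livers of the lines were compared as well, mTR WT over mTERT WT. This comparison shares the mTERT WT arrays with the mTERT knockout comparison, so the values of both are only given side by side. No probe passed the test (0.0% called, and 525 below an unadjusted p of 0.05 in limma). The difference lay below 0 for 28 of the 33 genes, with a median of -0.11, against 0.01 over all tested probes. Without mTR WT 2, the medians were -0.10 for complement and -0.02 for coagulation genes, against -0.16 and -0.08 with it. The groups did not overlap, mTR WT lower, for Hc, C8a, C8b, C9, Cfi, Serping1 and Fgb, 7 of 33, where 2.33% of tested probes were lower without overlap. Cfi differed by -0.28 (unadjusted p 0.00704 in limma) between the wild types and by -0.20 between mTERT KO and WT, Hc by -0.30 and -0.21, and F11 by -0.25 and -0.32. Without the array labelled mTERT WT 1, Cfi, Hc and F11 differed by -0.29, -0.27 and -0.29 between the wild types. The acute phase genes had a median of -0.45 in the wild-type comparison. Their list means were 8.95, 8.76 and 8.89 in mTR WT livers, against 10.33, 8.91 and 9.15 in mTERT WT livers. The mTERT WT mean was the highest of the 4 groups for 11 of 15 complement genes and 10 of 18 coagulation genes, against 23.4% of tested probes. The part of the acute phase and muscle transcripts of the mTERT WT arrays in this was not tested.

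Genes of the list passed the test only between sets. Between the 4 arrays of set 1 and the 8 of sets 2 and 3, 5 of the 33 genes passed it, where 38.2% of tested probes did, so the list held fewer calls than the background. The 4 lower genes were F13b, F9, C8a and C8b, where 21.1% of tested probes were lower, and the higher one was Masp2, where 17.1% were higher. F13b encodes the subunit that carries the fibrin-crosslinking factor XIII in plasma, F9 is the protease factor IX that is missing in haemophilia B, C8a and C8b encode chains of the C8 pore complex, and Masp2 is the lectin-pathway protease that cleaves C4 and C2. The 250 bases before the start of each of these genes are shown because these genes passed the test between sets, from RefSeq on GRCm38.p6, 5′ to 3′ on the gene's own strand, with capitals marking matches on either strand to the motifs named after them.
F13b (chr1:139501457-139501706, plus strand): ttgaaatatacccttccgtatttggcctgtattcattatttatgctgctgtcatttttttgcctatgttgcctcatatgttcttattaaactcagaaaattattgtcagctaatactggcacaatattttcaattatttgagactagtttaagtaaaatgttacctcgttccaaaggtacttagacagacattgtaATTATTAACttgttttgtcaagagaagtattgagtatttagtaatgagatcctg
F9 (chrX:59999214-59999463, plus strand): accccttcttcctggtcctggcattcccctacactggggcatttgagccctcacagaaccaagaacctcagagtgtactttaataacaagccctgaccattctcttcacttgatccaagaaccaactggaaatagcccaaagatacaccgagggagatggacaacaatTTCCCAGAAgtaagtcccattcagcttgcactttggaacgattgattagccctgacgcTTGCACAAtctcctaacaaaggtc
C8a (chr4:104876399-104876648, minus strand): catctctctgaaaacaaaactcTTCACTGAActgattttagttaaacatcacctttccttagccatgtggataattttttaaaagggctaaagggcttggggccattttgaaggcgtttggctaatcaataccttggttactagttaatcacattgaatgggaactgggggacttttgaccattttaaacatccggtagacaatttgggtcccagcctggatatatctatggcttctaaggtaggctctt
C8b (chr4:104766067-104766316, plus strand): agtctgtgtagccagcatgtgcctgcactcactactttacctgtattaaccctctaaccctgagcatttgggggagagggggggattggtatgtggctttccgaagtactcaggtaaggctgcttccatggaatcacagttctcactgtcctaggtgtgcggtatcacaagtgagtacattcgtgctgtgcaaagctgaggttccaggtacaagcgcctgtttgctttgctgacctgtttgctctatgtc
Masp2 (chr4:148602294-148602543, plus strand): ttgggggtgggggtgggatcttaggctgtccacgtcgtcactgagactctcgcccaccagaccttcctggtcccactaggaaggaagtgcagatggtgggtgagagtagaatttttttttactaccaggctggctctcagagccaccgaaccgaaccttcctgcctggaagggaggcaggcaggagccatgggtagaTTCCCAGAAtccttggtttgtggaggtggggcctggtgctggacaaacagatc

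The motifs searched were GTTAATNAT for HNF1, TTGCNNAA for C/EBP, TTCNNNGAA for STAT and CTGGGAA for the type II interleukin 6 element. A match to HNF1 was found 54 to 46 bases before the start in F13b, and 0.737% of the 32851 promoters in the same table hold one. F9 holds a C/EBP match 24 to 17 bases before its start, as do 9.56% of all promoters. STAT matches were found in F9, C8a and Masp2 (7.02% of all promoters), and in F9 and Masp2 the STAT match overlaps a type II interleukin 6 element (9.10% of all promoters) read on the other strand. The C8b window holds none of the 4. Of the 33 genes, 25 had a promoter in the table, and 3 of these held HNF1, 5 C/EBP, 6 STAT and 4 the interleukin 6 element. A match is a description of letters and not evidence of binding.

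In set 1, F13b had 9.43 and 9.18 in the mTERT knockout and its wild-type littermate, and 9.30 and 9.48 in the mTR knockout and its littermate. Its values in the 8 arrays of sets 2 and 3 were 9.81 to 10.09. All 4 set 1 values lay below the other 8, and the difference was -0.60 (SE 0.0723, 95% interval -0.75 to -0.44, adjusted p 7.6e-05 in limma). F9 had 9.77, 9.59, 9.59 and 9.79 in these 4 set 1 arrays in the same order, against 9.95 to 10.33 in the other 8, again with no overlap, and differed by -0.49 (SE 0.0753, adjusted p 0.000371). Masp2 was the only gene of the list with all 4 set 1 arrays above the rest, at 9.78, 9.83, 9.75 and 9.82, against 9.35 to 9.73, a difference of 0.26 (SE 0.0749, adjusted p 0.0184). In all, 3 of 33 genes separated completely, where 23.0% of tested probes did. C8a had 10.90, 11.12, 10.69 and 10.73 in set 1, against 10.96 to 11.24, and differed by -0.23 (adjusted p 0.0183). C8b, its neighbour on the chromosome with no protein-coding gene between them, had 11.22, 11.45, 11.08 and 11.12 in set 1, against 11.27 to 11.60, and differed by -0.24 (adjusted p 0.0237). For both C8 genes the mTERT WT 1 value lay among those of sets 2 and 3. Set 1 was below sets 2 and 3 within each of the 4 groups for all 4 lower genes, as it was for 29.0% of tested probes, by -0.40 to -0.81 for F13b, -0.44 to -0.56 for F9, -0.07 to -0.38 for C8a and -0.09 to -0.36 for C8b.

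**Figure D3:**
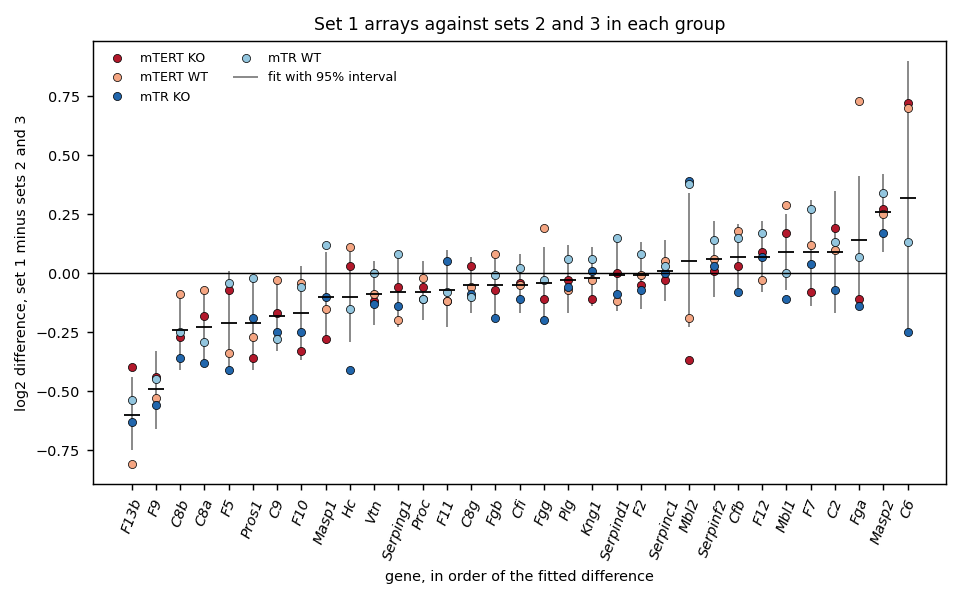
Set 1 value minus the mean of sets 2 and 3 in log2 intensity within each of the 4 groups (points), with the difference fitted by limma (black dash) and its 95% interval (grey line), for the 33 genes in order of that difference. F13b and F9 lie at the low end with all 4 points at -0.40 or below, and Masp2 has all 4 points above 0.

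C9 (-0.18, adjusted p 0.0516), Pros1, the protein S cofactor of protein C (-0.21, adjusted p 0.085), and F5, the cofactor of the prothrombin-cleaving complex (-0.21, adjusted p 0.114), missed the threshold in limma. C9 passed it without mTERT WT 1 (-0.23) or mTERT WT 3 (-0.22), and Pros1 (-0.25) and F5 (-0.28) passed it without mTR WT 2. The 4 set 1 animals came from 2 litters, so these p-values can be too small. Of the 4 set 1 arrays only mTR WT 1 was free of pancreas transcripts. With the 5 pancreas-bearing arrays left out, set 1 is that single array, assumed to vary like the others. The difference was then -0.49 for F13b, -0.46 for F9, -0.35 for C8a, -0.30 for C8b and 0.21 for Masp2, and the lack of calls in the list at that size (272 probes passed) says nothing about pancreas transcripts. F13b and F9 passed the test with any 1 array left out. Masp2 did not pass it without mTERT KO 1 (0.25), mTERT WT 1 (0.26) or mTR WT 1 (0.23). C8b did not pass without mTERT KO 1 (-0.23), mTR KO 1 (-0.21) or mTR WT 1 (-0.24), nor C8a without mTR KO 1 (-0.18) or mTR WT 1 (-0.21), so no complement gene passed without mTR WT 1.

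Genes of the same pathways outside the list passed the test between sets in 9 of 25 complement cases, 4 higher and 5 lower, and in 9 of 24 coagulation cases, 2 higher and 7 lower, shares near the 38.2% of all tested probes. Colec10, a collectin of the lectin pathway, differed by -0.89 (adjusted p 1.3e-05 in limma), Tfpi, the inhibitor of the tissue factor pathway, by -0.61 (adjusted p 0.00373), and Lman1, a receptor that carries factors V and VIII out of the endoplasmic reticulum, by -0.34. Among regulators of hepatocyte genes, Cebpb was higher in set 1 by 1.35 (adjusted p 0.000101) and Hnf4a by 0.58 (adjusted p 7.8e-05), Cebpa rose by 0.32, and Stat3 did not pass the test (0.08). None of them passed the test in a comparison of knockout with wild type.

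C6 stood apart in 1 litter. It had 9.92, 9.85 and 8.55 in mTERT KO livers, against 10.16, 10.09 and 8.84 in mTERT WT livers, and 9.53, 9.62 and 9.95 in mTR KO livers, against 9.73, 9.56 and 9.65 in mTR WT livers. The KO and WT littermates of mTERT set 3 lay together 0.69 log2 units below the lowest of the other 10 animals, and within each mTERT litter the KO animal was 0.24 to 0.29 below its WT littermate. Of 19938 genes, 618 (3.1%) had both these arrays below the other 10, and C6 had the 5th widest gap. C9, which lies near C6 on chromosome 15 with 8 protein-coding genes between them, did not follow, at 11.17 in mTERT KO 3 and 11.34 in mTERT WT 3. Another litter was low for the rest of the terminal pathway: both mTR set 1 animals lay below the other 10 for Hc, C8a, C8b, C8g and C9, 5 of the 6 terminal pathway genes, where 3.9% of tested probes did. The gap was widest for C8a, at 0.17, with 10.69 in mTR KO 1 and 10.73 in mTR WT 1. It was 0.10 for C8b, 0.05 for Hc, 0.02 for C9 and 0.01 for C8g. Outside the terminal pathway, both animals were also lowest for Proc, by 0.02, and highest for Mbl2, by 0.01. The low terminal pathway values were noticed after the values were seen. Pancreas transcripts averaged 11.20 in the KO animal of that litter and 3.82 in its WT littermate.

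**Figure D4:**
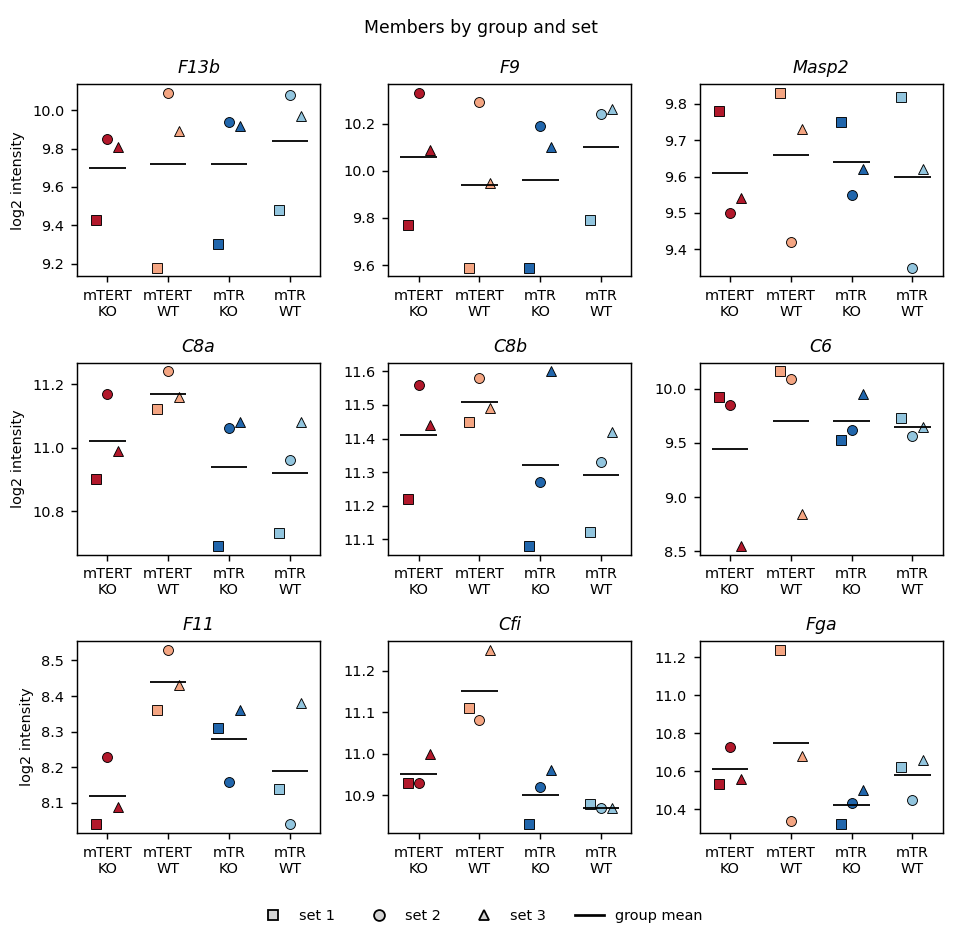
Log2 intensity of 9 genes by group, with 1 point per animal, the marker shape giving the set number and the black line the mean of 3 animals. Set 1 (squares) is lowest in every group for F13b and F9 and highest for Masp2, C6 is low in both mTERT animals of set 3 (triangles), and Fga is high in mTERT WT 1.

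Fibrinogen is built from 3 chains whose genes lie next to each other with no other protein-coding gene between them. Their promoters are shown because all 3 chains had their highest value in the same array, with the same marking as above.
Fga (chr3:83025903-83026152, plus strand): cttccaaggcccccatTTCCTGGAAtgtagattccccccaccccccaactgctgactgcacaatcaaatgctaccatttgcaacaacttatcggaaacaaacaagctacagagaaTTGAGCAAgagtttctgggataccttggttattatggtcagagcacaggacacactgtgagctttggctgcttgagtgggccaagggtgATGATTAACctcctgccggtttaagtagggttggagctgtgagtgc
Fgb (chr3:83049864-83050113, minus strand): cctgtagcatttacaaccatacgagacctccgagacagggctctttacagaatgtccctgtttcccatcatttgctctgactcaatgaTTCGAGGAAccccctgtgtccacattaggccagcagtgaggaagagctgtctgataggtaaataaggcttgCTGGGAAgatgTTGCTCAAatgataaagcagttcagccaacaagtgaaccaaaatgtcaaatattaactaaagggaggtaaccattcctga
Fgg (chr3:83007474-83007723, plus strand): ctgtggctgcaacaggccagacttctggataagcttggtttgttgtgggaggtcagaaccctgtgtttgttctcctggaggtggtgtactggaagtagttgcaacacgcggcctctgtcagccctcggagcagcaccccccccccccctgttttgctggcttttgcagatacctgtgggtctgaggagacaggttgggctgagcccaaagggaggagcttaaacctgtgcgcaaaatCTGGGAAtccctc

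Fga, the alpha chain, had 10.53, 10.73 and 10.56 in mTERT KO livers, against 11.24, 10.34 and 10.68 in mTERT WT livers, and 10.32, 10.43 and 10.50 in mTR KO livers, against 10.62, 10.45 and 10.66 in mTR WT livers. The array labelled mTERT WT 1 stood above the other 11 arrays, and a second Fga probe gave 10.01 there, against 8.57 to 9.23 elsewhere. Fgg, the gamma chain, had 12.44, 12.53 and 12.57 in mTERT KO livers, against 12.75, 12.50 and 12.63 in mTERT WT livers, and 12.30, 12.47 and 12.54 in mTR KO livers, against 12.46, 12.44 and 12.53 in mTR WT livers. Both Fgg and Fgb were also highest in mTERT WT 1, the array with the highest acute phase mean. Without that array the average KO minus WT difference of Fga was -0.03, against -0.15 with it. The Fga window holds matches to HNF1, C/EBP and STAT, Fgb to C/EBP, STAT and the interleukin 6 element, and Fgg to the interleukin 6 element alone.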

How the data were processed

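Liver RNA of 12 mice was hybridised to Affymetrix arrays, 1 per animal. The authors' deposited table holds log2 values for 28853 probes. PLIER, Affymetrix Expression Console and GCOS 1.4 are listed in the submitters' processing notes with no role, and the normalization, the genome build and any added constant are not given in the sources used here. The log base was inferred from the values, which run from 2.62 to 13.83, and array medians lie between 4.37 and 4.43. GEO's platform annotation gave 1 symbol for 21789 probes, several for 1621 and none for 5443, and symbols were updated by Entrez ID through RefSeq. One limma 3.58.1 fit (R 4.3.3) on all 12 arrays and 4 groups tested the 20197 probes at or above the 30th percentile of mean level (3.90), with Benjamini-Hochberg adjustment over all of them at a threshold of 0.05. Set 1 against sets 2 and 3 was tested with group means as covariates. The number of arrays limits the precision. The series text says that animals of a set were littermates, so the numbers were taken to pair animals within a line. Same-numbered KO and WT arrays deviated together (r 0.135 to 0.692 over probes in the 6 pairs). Set 1 differed from sets 2 and 3 in 38.2% of tested probes, so these correlations cannot tell littermates from arrays of the same set. With set 1 in the fit, the consensus correlation of littermates was 0.0938. KO 2 correlated more with WT 3 (0.416 and 0.464) than with WT 2 (0.135 and 0.151) in both lines. The pairing therefore rests on the series text.

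Genes named in the text are the central genes of each cascade (Hc, Mbl1, Mbl2, Fga, Fgb, Fgg, F2, Serpinc1 and Plg), those past the threshold, those with the smallest p per list and comparison (3 or 4), up to 5 other pathway genes per comparison, and regulators. Others were picked after their values were seen. The members and lists were chosen with earlier results of these data known. Alternatives covered normalization, filter, eBayes settings, array weights, probe choice, blocks and left-out arrays. The fits were tested on simulated data.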

Additional observations from a re-analysis of the deposited data

Results flagged for a closer look

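For Mbl2 and F9, 2 of the 33 genes, the KO minus WT difference had opposite signs in the lines in every litter. The same held for 3.88% of the 20197 tested probes, so few such genes are to be looked for in a list of this size. Mbl2 had 9.99, 10.36 and 10.35 in the mTERT KO livers of sets 1 to 3, against 9.89, 9.82 and 10.34 in their mTERT WT littermates, and 10.37, 10.05 and 9.91 in mTR KO livers, against 10.48, 10.15 and 10.06 in their mTR WT littermates. The KO animal was above its littermate in every mTERT litter, by as little as 0.01 in set 3, and below it in every mTR litter. The mTR effect minus the mTERT effect was -0.34 (limma p 0.21, adjusted p 1.00). F9 likewise was higher in the KO animal of all 3 mTERT litters, by 0.18, 0.04 and 0.15, and lower in the KO animal of all 3 mTR litters, by 0.20, 0.04 and 0.15. The difference between its effects was -0.26 and did not pass the test either. It was -0.07 without mTR KO 1, -0.08 without mTERT WT 1 and -0.43 without mTERT WT 2, and that of Mbl2 ran from -0.50 to -0.21 with 1 array left out. With the litter as a replicate block, the unadjusted p of the difference was 0.0512 for Mbl2 and 0.0542 for F9, and the adjusted p was 0.785 for both in limma.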

How the results depend on the processing

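With the litter as a replicate block (paired analysis), 0 probes passed the test in the 4 comparisons of knockout with wild type and 0 genes of the list did, and the set number as a block gave 0 in the wild-type comparison. With the litter as a random block, set 1 differed from sets 2 and 3 in 7135 probes and in the same 5 genes. Without the 4 arrays of set 1, 1 probe, for Dmbt1, passed in the mTERT, the mTR and the average comparison; the average differences of Fga and Fgg turned to 0.025 and 0.0031. Without the arrays with pancreas transcripts, chosen after the data were seen, mTERT WT 3 is the lone mTERT WT array and mTR WT 1 the lone set 1 array, each assumed to vary like the other groups. In that fit 72, 36, 38, 97 and 272 probes passed for mTERT, the average, the difference between effects, the wild types and set 1, with 0 complement and 0 coagulation genes of the list in set 1. F9 turned to 0.12 in mTR, and Hc and C9 to 0.016 and 0.011 in the average. Without the arrays with muscle transcripts, also chosen afterwards, mTERT WT 2 is the lone mTERT WT array, and Fgg turned to 0.018 in mTERT, Fga to 0.053 in the average and F9 to 0.093 in the difference. Array weights turned F11 in mTR to -0.0047, and 1 probe per gene gave 5064 probes in set 1. Leaving out each array in turn gave 0 to 41 probes for mTERT, 0 to 28 for the average, 0 to 30 for the difference and 0 to 42 for the wild types, highest each time without mTERT WT 2, and none of these was for a gene of the list. The complement median was -0.18 to -0.081 in mTERT and -0.18 to -0.10 in the wild types, and the coagulation median -0.07 to 0.0092 in mTERT (above 0 without mTERT WT 3) and -0.14 to -0.02 in the wild types. In mTR, the complement median was -0.039 to 0.077 and the coagulation median -0.062 to 0.036. In mTR, Masp1 ranged from -0.012 (without mTR WT 2) to 0.16, Mbl2 from -0.25 to 0.0028 (without mTR WT 1) and F9 from -0.28 to 0.052 (without mTR KO 1). In set 1, 0 to 4 complement and 2 to 4 coagulation genes of the list passed, 0 without mTR WT 1. C9 (-0.18 with all arrays) passed under median centring, the filter at the 50th percentile, trended and robust eBayes, array weights and without the muscle-bearing arrays, mTERT WT 1 or mTERT WT 3, F5 with array weights or without mTR WT 2, and Pros1 without mTR WT 2. The cause of these changes was not tested. Under quantile normalization and without a filter, no named value changed direction or side of the threshold.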

Other observations

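C4a, a complement gene outside the list whose product in mice is the sex-limited protein, was chosen after its values were seen. It had 8.57 in mTERT KO 1 and 8.82 in its littermate mTERT WT 1, against 6.62 to 7.63 in the other 10 arrays. Set 1 differed from sets 2 and 3 by 0.88 (adjusted p 0.0216 in limma), but mTR KO 1 and mTR WT 1 had 7.30 and 7.35, within the range of the other sets, so the difference lay in 1 litter. The near-identical C4b gene can share signal with this probe, and this was not tested.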
